A study of Mus musculus with 5 samples.

Results

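Clu, Ly6a, Msln, Anxa3 and Anxa8 are genes that the intestinal epithelium switches on when it repairs itself, and their transcripts were followed here through a mouse model of colitis-associated colon cancer. The members are the 5 rows of the expression table that carry these symbols, of 52382 genes in all. Of the 5 genes, 4 had counts in every library and passed the filter on low values, a mean over the libraries of at least 1 count per 1000000, as did 14720 genes of the table. Anxa8 was listed at 0 in every library.

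The samples were colon tissue of wild-type male C57BL/6 mice aged 8 to 12 weeks at the start. Each of 5 libraries stands for a week: W0, an untreated control, W2, labelled with azoxymethane (AOM, a mutagen) and not with dextran sulfate sodium (DSS), and W5, W8 and W11, labelled with both AOM and DSS. AOM was given at 8.5 mg per kg and DSS, a polymer that injures the colonic epithelium, at 1.5% in the drinking water, in cycles. The control mice are described both as taken before treatment and as killed together with the treated mice, so age and treatment cannot be told apart. From each group 3 mice were selected, and whether their RNA was pooled is not given in the sources used here.

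After injury, crypts that have lost their stem cells are rebuilt by cells that turn on genes otherwise seen in the fetal gut. This programme runs under YAP and TAZ, the transcriptional co-activators that the Hippo kinases hold back, and it alternates with the adult stem cell state kept by Wnt signalling. In mouse intestine Clu marks the damage-induced revival stem cells, Ly6a (Sca-1) marks the fetal-like epithelium of colitis, and Msln and the annexins Anxa3 and Anxa8 belong to fetal and regenerating epithelial signatures. None of these genes is particular to epithelium: Ly6a is also carried by endothelium and lymphocytes, Msln by the mesothelium of the gut wall and Clu by many cell types.

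The libraries held between 13389184 and 20379429 counted reads, 1 library per week, so no difference below has a replicate check and no p-value is given. Levels are counts per 1000000 counted reads (CPM). A gene is said to rise or fall only at a 2-fold difference of CPM + 1 between a pair of libraries. Ratios of CPM carry exact conditional 95% intervals that cover counting error only. Besides epithelial markers, every library held smooth muscle markers (3135 to 7195 CPM summed over 7 genes) and fibroblast markers (1441 to 4599 CPM over 8 genes), so the tissue was not of epithelial cells alone. In such tissue fewer cells of a type and less RNA per cell cannot be told apart.

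The members did not move as a block. Clu and Msln were highest at W8, Ly6a was highest at W2, and Anxa3 was highest in the untreated library. Against W0, 1 of the 4 measured members rose at W2 (Ly6a), where 3.41% of all genes tested were at least 2-fold higher and 4.23% lower. None rose or fell at W5, where 6.63% of genes were higher and 1.87% lower. At W8 Clu and Msln rose and none fell, where 7.79% of all genes were higher and 3.85% lower. At W11 Clu rose and none fell, where 11.3% of all genes were higher and 16.9% lower. With 4 members these counts are a description of 4 genes and not a property of a programme.

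**Figure D1:**
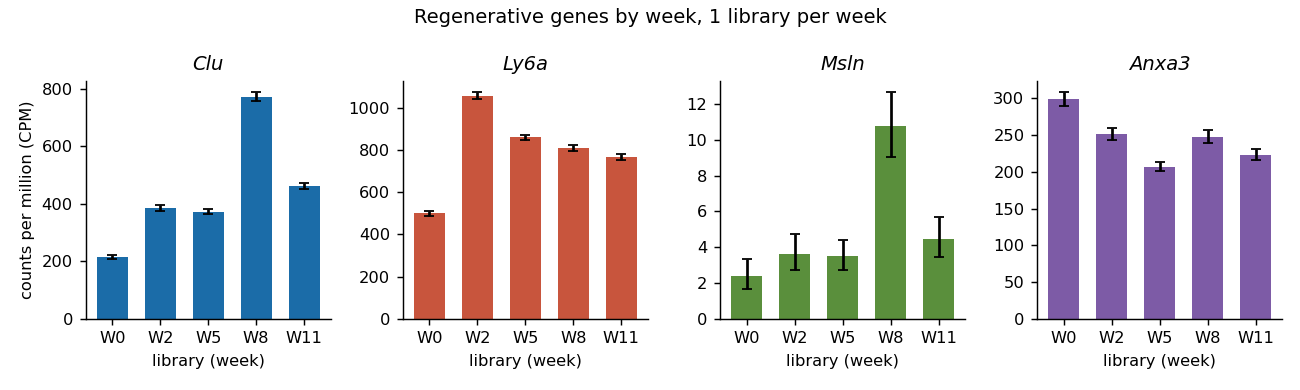
Level of Clu, Ly6a, Msln and Anxa3 in CPM (y axis, a separate scale for each gene) in the 5 libraries from W0 to W11 (x axis). Bars are single libraries and error bars are exact Poisson 95% intervals of the count; Clu and Msln stand highest at W8, Ly6a at W2 and Anxa3 at W0.

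Clu encodes clusterin, a secreted chaperone that binds misfolded proteins. It was measured at 215 CPM at W0, 384 in W2, 372 in W5, 773 in W8 and 462 in W11. The W8 library thus stood far above the others, and W0 was the lowest. At W8 the ratio to W0 was 3.59, with a counting interval of 3.45 to 3.74 (log2 fold 1.84), and 422 of the 14720 genes tested had a larger fold. At W11 the ratio to W0 was 2.14 (2.05 to 2.24, log2 fold 1.10). The folds of 0.83 at W2 and 0.79 at W5 were under the 2-fold criterion.

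Clu was already above its untreated level in the AOM library, and the W5 level was close to that, in a step where 9.44% of all genes were at least 2-fold higher and 4.46% lower and no member passed: the ratio of W5 to W2 was 0.97 (0.94 to 1.00). The step in which Clu rose was W8 against W5, at a ratio of 2.08 (2.02 to 2.14), where 4.78% of all genes were at least 2-fold higher and 3.6% lower. From the deposited length-scaled values that log2 fold was 0.96, just short of the criterion, and scaled to the sum of 9 epithelial markers such as Epcam and Cdh1 it was 0.66. At W11 the level was 0.60 times that of W8 (0.58 to 0.62), a log2 fold of -0.74 that did not pass. With W2 in place of W0 as the baseline, Clu passed at W8 with a log2 fold of 1.01, where 10.7% of genes were higher and 5.56% lower. At W11 it did not pass against W2 (0.26), where 9.25% of genes were higher and 13.4% lower.

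Msln encodes mesothelin, a cell surface protein anchored by a lipid tail (GPI). It was a low transcript, with 33 counts at W0, 53 in W2, 71 in W5, 144 in W8 and 67 in W11, which makes 2.40, 3.62, 3.48, 10.8 and 4.48 CPM in that order of weeks. The W8 library again stood alone, and the counting intervals of the other weeks all lay below that of W8, 9.07 to 12.7 CPM. At W8 Msln was 4.49 times its W0 level (3.06 to 6.77, log2 fold 1.79). The ratios at W2 (1.51, interval 0.96 to 2.41) and W5 (1.45, interval 0.95 to 2.27) were not distinguishable from 1 at this depth, and that at W11 was 1.87 (1.22 to 2.93, log2 fold 0.69).

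Between consecutive weeks Msln rose at W8 against W5, with a ratio of 3.09 (2.31 to 4.16, log2 fold 1.39), and 267 genes had a larger fold in that step. It fell by 1.10 on the log2 scale at W11 against W8, with a ratio of 0.42 (0.31 to 0.56), where 11.9% of all genes were at least 2-fold lower and 3.4% higher. The median gene had a log2 fold of -0.30 in that step, and relative to that median the log2 fold of Msln was -0.80, which is under the criterion. On the deposited length-scaled values, where Msln lay between 0.22 and 1.01 RPKM and a pseudocount of 1 weighs more, the W8 fold against W0 was 0.72 and did not pass.

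Ly6a encodes Sca-1, a small GPI-anchored surface protein of the Ly6 family that interferons induce in many cell types. Its reads can be shared with neighbours of the same family. Of the 50-base stretches in its annotated transcripts (GENCODE M21), 19.0% also occur in transcripts of other genes, mainly Ly6c1, Ly6i, I830127L07Rik and Ly6c2. The longest coding run shared with Ly6c1 was 45 bases, so its shared 50-base stretches do not lie within the coding sequences compared. The coding stretch around the longest run shared with Ly6i is shown here, where reads of Ly6a and Ly6i are hard to tell apart. It covers bases 45 to 134 of each coding sequence, in a pair of exons on chromosome 15 (GRCm38), on the minus strand, between chr15:74996505-74997560 for Ly6a. Capitals mark bases that differ from Ly6a.
Ly6a: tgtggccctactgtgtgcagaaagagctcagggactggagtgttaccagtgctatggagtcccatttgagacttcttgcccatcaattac
Ly6i: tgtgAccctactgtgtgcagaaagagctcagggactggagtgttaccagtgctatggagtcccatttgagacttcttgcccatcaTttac
Ly6c1: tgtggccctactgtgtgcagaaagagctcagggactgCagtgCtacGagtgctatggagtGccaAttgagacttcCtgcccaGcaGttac

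Ly6i (chr15:74981939-74983015 for the same stretch) differs from Ly6a there at 2 of 90 bases, with a shared run of 80 bases, and Ly6c1 (chr15:75047406-75048467) differs at 8. Both Ly6i and Ly6c1 were much less abundant than Ly6a in every library. Ly6i ranged from 1.23 to 3.69 CPM and Ly6c1 from 57.1 to 113 CPM, while Ly6a was never below 500.4 CPM. When Ly6a was summed with Ly6a2, Ly6i, Ly6c1 and Ly6c2, its log2 fold at W2 was 1.04, against 1.08 for Ly6a alone. For W5 against W2 the log2 folds were -0.23 summed and -0.30 alone. Ly6a made up most of the sum, so the folds could differ little, and the sum cannot show how shared reads were assigned.

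Ly6a was measured at 500.4 CPM at W0, 1057 in W2, 860.3 in W5, 810.5 in W8 and 767 in W11. The AOM library was the highest and each later library was lower than the one before, yet all 4 stayed above W0. At W2 the ratio to W0 was 2.11 (2.05 to 2.17), and 387 genes had a larger fold. The ratios at W5 (1.72), W8 (1.62) and W11 (1.53) were under the criterion, with log2 folds of 0.78, 0.69 and 0.61. No consecutive step after W2 passed, and the widest was W5 against W2, at a ratio of 0.81 (0.80 to 0.83).

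Anxa3 and Anxa8 encode annexins, proteins that bind membrane phospholipids in the presence of calcium. Anxa3 was measured at 299 CPM at W0, 251 in W2, 207 in W5, 248 in W8 and 223 in W11. Every treated library lay below the untreated one, and the widest gap was at W5, with a ratio of 0.69 (0.66 to 0.72, log2 fold -0.53). That fold was lower than those of 13224 of the 14720 genes tested, but no fold of Anxa3 reached the criterion in either direction. Under a scaling to the summed level of epithelial markers, its folds at W2, W8 and W11 turned slightly positive (0.03, 0.28 and 0.04), but not without the most abundant of them, Krt8, Krt19 and Lgals4 (-0.11, -0.20 and -0.11).

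Anxa8 was listed at 0 in all 5 libraries, where a limit of 3 counts comes to 0.147 to 0.224 CPM in a library and the exact 95% intervals reach up to 0.181 to 0.276 CPM, if its reads were counted like those of other genes. In GENCODE M21 none of its exon bases lies within another gene and none of its 50-base stretches occurs elsewhere. Anxa1, of the wider regenerative list, and Elf3, an epithelial transcription factor, were also listed at 0 throughout, and Lats1, a Hippo kinase, had 2 counts in all. A value of 0 in this table is therefore not read as absence of the transcript, and no fold is given for Anxa8.

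Levels of different genes can be set against each other only per length of transcript. On the deposited RPKM scale Ly6a was the most abundant member in every library, between 69.6 and 142 RPKM, and Msln the least abundant of the measured 4. Anxa3 stood above Clu at W0, at 28.3 against 18.4 RPKM, and below it in each later library. At W8 Clu was at 66.2 RPKM and Anxa3 at 23.6. Measured against the genes tested, Clu had a higher RPKM than 98.0% of them at W8 and 92.4% at W0, Ly6a had a higher one than 98.3% to 99.2% in every library, and Msln had a higher one than 33.5% at W8 and 11.6% at W0.

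**Figure D2:**
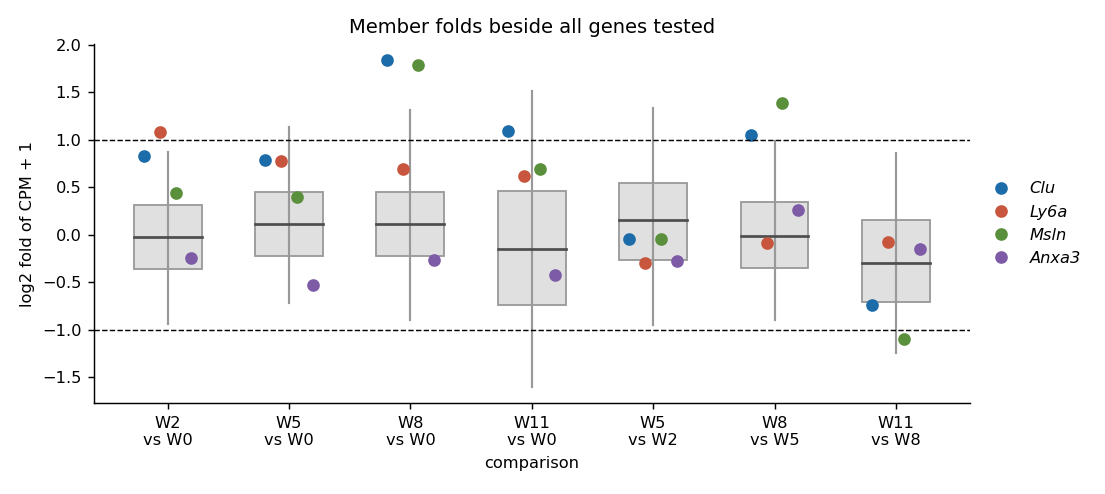
Log2 fold of CPM + 1 (y axis) of Clu, Ly6a, Msln and Anxa3 (coloured points) in 4 comparisons with W0 and 3 between consecutive weeks (x axis). Grey boxes hold the central 50% of the 14720 genes tested with their median, grey lines run from percentile 5 to percentile 95, and dashed lines mark a 2-fold difference; Clu and Msln lie above the 95th percentile at W8 against W0 and against W5.

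By their folds at W2, W5, W8 and W11 against W0, Clu and Msln were the most alike of the members, with a root-mean-square difference of 0.34 on the log2 scale. Of the other 14719 genes, 33 were nearer to Clu than Msln was. Clu and Ly6a differed by 0.63, with 617 genes nearer, Ly6a and Msln by 0.66, and Anxa3 differed from the other members by 1.17 to 1.55. These likenesses rest on 4 folds that share the W0 library and describe 5 libraries only.

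The genes nearest to each member were searched among 12949 named genes. For Clu they included Vtcn1, an inhibitory ligand for T cells (root-mean-square difference 0.17), and Btbd19 (0.20). Vtcn1 had 5.52 CPM at W0, 8.88 in W2, 10.7 in W5, 24.8 in W8 and 11.1 in W11, with W0 the lowest and W8 the highest library, as for Clu. For Msln they were Thpo, which encodes thrombopoietin (0.10), F5, coagulation factor V (0.16), and Bmp8b, a bone morphogenetic protein (0.17). Thpo stood at 14.0 CPM at W8 and between 3.56 and 5.82 CPM in the other libraries.

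For Ly6a the nearest were Nemf, a factor of ribosome quality control (0.08), Chrm3, the M3 muscarinic receptor (0.11), and Lysmd1 (0.12). For Anxa3 they were Deaf1, a transcription factor (0.04), Uba7, the activating enzyme of the ubiquitin-like modifier Isg15 (0.06), and Zfp423, a zinc finger transcription factor (0.07). None of the genes named here is a member or belongs to the gene lists below.

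The wider set of fetal and regenerative epithelial genes, without the members, held 24 genes, of which 21 passed the filter. At W2 none of the 21 rose and 1 fell, with a median log2 fold of -0.27 against -0.02 for all genes. At W5, 5 rose and 1 fell, with a median of 0.55 against 0.11 for all genes. At W8, 10 rose and none fell, with a median of 0.85 against 0.11, and at W11, 9 rose and 2 fell, with a median of 0.64 against -0.15. Over all genes, 3.41%, 6.63%, 7.79% and 11.3% were at least 2-fold higher in these 4 weeks in order. The shares lower were 4.23%, 1.87%, 3.85% and 16.9%. The week of the highest level was W8 for 11 of the 21 genes, as for Clu and Msln, while 21.3% of all genes tested were highest at W8. None of the 21 was highest at W2, as Ly6a was.

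Spp1, which encodes the secreted matrix protein osteopontin, had 1.02 CPM at W0, 0.820 in W2, 24.9 in W5, 81.4 in W8 and 40.1 in W11. Its log2 folds of 5.35 at W8 and 4.35 at W11 were the largest of the list. Cldn4, a tight junction claudin, had 13.2 CPM at W0, 10.8 in W2, 69.1 in W5, 291 in W8 and 258 in W11. Ly6d, a Ly6 family protein of squamous and progenitor cells, rose by 2.36 at W8 and 2.92 at W11. Ereg, which encodes the growth factor epiregulin, was at 0.91 at W5 and fell by 1.29 at W11.

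Other genes of the list that rose at W8 were Il33, Phlda1, Tnfrsf12a, Plaur, Krt7 and Gja1, with log2 folds between 1.16 and 2.30. Gja1, a gap junction protein, fell again by 1.13 at W11 against W8, as Msln did, and Spp1, Ereg and Itga2 fell in that step too. Areg, which encodes amphiregulin, and Il1rn, the interleukin 1 receptor antagonist, stayed within 0.57 of W0 on the log2 scale in every week. S100a6, a calcium-binding protein, fell by 1.21 at W5 and was at 0.10 at W8. Of the 21 tested genes of this set, 11 were highest at W8, 7 at W11, 2 at W5 and 1 at W0. The members without a peak at W8 were highest at W2 (Ly6a) and W0 (Anxa3), so the weeks differed.

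**Figure D3:**
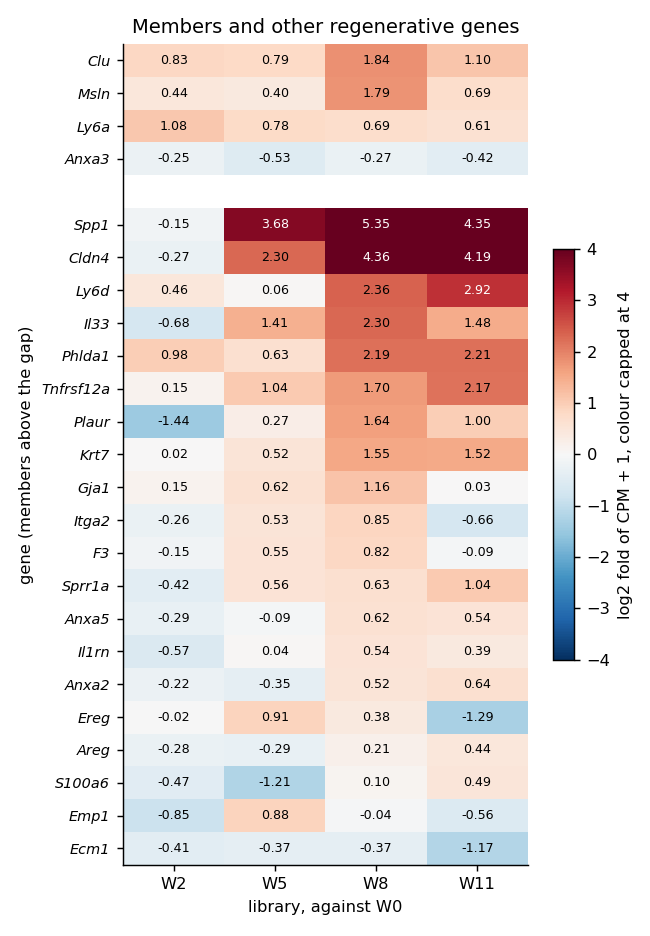
Log2 fold of CPM + 1 against W0 at W2, W5, W8 and W11 (columns) for the 4 measured members (above the gap) and 20 of the 21 tested genes of the wider regenerative set (below it), with the value in each cell and red for higher than W0. The W8 column is the reddest for Clu and Msln and positive for 18 of the 20 other genes shown, while the W2 column is positive for 5 of them.

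The YAP and TAZ target list held 21 tested genes of 22, and as a list it did not follow Clu and Msln. At W8, 3 rose and 2 fell, with a median of 0.12 that was next to the median of all genes (0.11). Of all genes, 7.79% were at least 2-fold higher at W8 and 3.85% lower. At W11, 1 rose and 8 fell (median -0.70), where 16.9% of all genes were at least 2-fold lower. Rbms3, an RNA-binding protein, rose by 1.56 at W8 and 1.55 at W11, but it was also up by 1.43 at W2. Igfbp3, an insulin-like growth factor binding protein, rose by 1.32 at W8, and Ankrd1, a classical YAP target, by 1.22. Crim1, a transmembrane regulator of growth factors, fell by 2.07 at W11.

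The core Hippo list held 14 tested genes of 16. At W8, 1 of the 14 rose and none fell, where 7.79% of all genes were at least 2-fold higher and 3.85% lower. The count was thus near the share of all genes, and the median was 0.35 against 0.11 for all genes. The gene that rose was Tead2, a DNA-binding partner of YAP, with 11.3 CPM at W0, 11.3 in W2, 24.7 in W5, 88.9 in W8 and 118 in W11. Tead3, of the same family, was at -0.34 at W8 and fell by 1.14 at W11. Yap1 was at 127 CPM at W8 and 90.3 CPM at W0, and Wwtr1, the gene of TAZ, was at 32.1 CPM at W8 and 23.8 CPM at W0; both were named outside the rule for named genes, and both were under the criterion.

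Crypt base stem cell genes, the adult counterpart of the regenerative state, were highest at W8 in 8 of 13 tested genes, as were 21.3% of all genes. At W8, 7 of the 13 rose and none fell (median 1.30 against 0.11 for all genes), where 7.79% of all genes were higher and 3.85% lower. At W11, 4 rose and 2 fell (median 0.60 against -0.15), where 11.3% of all genes were higher and 16.9% lower. Lgr5, the Wnt-dependent stem cell receptor, had 5.66 CPM at W0, 9.97 in W2, 27.6 in W5, 65.1 in W8 and 33.0 in W11. Tnfrsf19 rose by 3.35 at W8, Msi1, an RNA-binding protein of stem cells, by 2.12, and Rgmb, a bone morphogenetic protein co-receptor, fell by 2.04 at W11. The libraries highest and lowest in Lgr5 were those highest and lowest in Clu, W8 and W0.

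Interferon response genes were set beside Ly6a because interferons induce it. Of 16 tested genes of 18, 10 rose at W2 and none fell (median 1.13), 8 rose at W5 (median 1.08), 2 rose at W8 (median 0.47) and none rose at W11 (median -0.17). The shares of all genes higher were 3.41%, 6.63%, 7.79% and 11.3% in that order. The medians of all genes were -0.02, 0.11, 0.11 and -0.15, so at W11 the list median was next to that of all genes. The summed level of the list was 706 CPM at W0, 1615 in W2, 1138 in W5, 872 in W8 and 647 in W11. Ly6a and this sum were both highest at W2 and lower in each later library, but at W11 the sum was 0.92 times that of W0 and Ly6a was 1.53 times. Single genes differed: 9 of the 16 were highest at W2 and 6 at W5, as were 16.2% and 26.3% of all genes tested. Iigp1, an interferon-inducible GTPase, rose by 2.73 at W2 and was at -0.08 at W11. Cxcl9, a T cell chemokine, rose by 1.64 at W2 and 1.92 at W8, and Oas2, an antiviral synthetase, fell by 1.12 at W11. Whether interferon had a part in the level of Ly6a was not tested.

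Among the other Ly6 family genes, 11 of 14 were tested, and none fell against W0 in any week. Over all genes, 4.23%, 1.87%, 3.85% and 16.9% were at least 2-fold lower at W2, W5, W8 and W11. Of the 11, 1 rose at W2, 2 at W5 (Ly6c2 and Ly6m), 2 at W8 (Ly6d and Ly6m) and 3 at W11. The shares of all genes higher were 3.41%, 6.63%, 7.79% and 11.3% in the same order. The gene that rose at W2 with Ly6a was its near copy Ly6i, by 1.07, from 17 counts at W0 to 54 in W2. Ly6a had 15482 counts in W2, and how reads shared by these genes were assigned is not known. Ly6m rose by 1.72 at W8, Ly6c2 by 1.39 at W11 and Ly6d as above. Ly6c1, which marks endothelium and monocytes, was at 0.90 at W2 and 0.90 at W8, short of the criterion. Ly6e was at 1430.3 CPM at W8 and 772 CPM at W0 (log2 fold 0.89), with its highest level at W8 rather than at W2.

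Of the other annexins, 7 of 10 were tested and none rose on the CPM scale in any comparison with W0. Over all genes, 3.41%, 6.63%, 7.79% and 11.3% were at least 2-fold higher at W2, W5, W8 and W11. Anxa2, the most abundant of these annexins at 159.5 RPKM at W0, was at 0.52 at W8 and 0.64 at W11, and Anxa5 at 0.62 and 0.54. Anxa11 fell by 1.12 at W2 and by 1.32 at W11. At W8, 6 of the 7 lay above W0, where Anxa3 lay below it at -0.27.

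**Figure D4:**
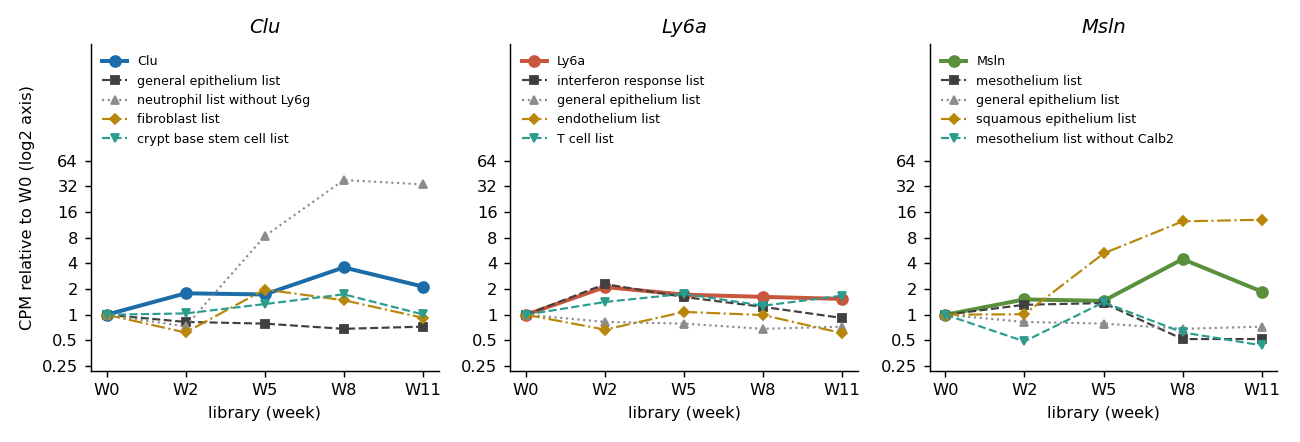
CPM relative to W0 (y axis, log2 scale) in the 5 libraries (x axis) for Clu, Ly6a and Msln, each beside the summed CPM of gene lists for the named cell types or responses. Ly6a and the interferon list are both highest at W2, and Clu, the crypt base stem cell list and the neutrophil list without Ly6g are highest at W8; the mesothelium list is level at W8 and W11, where Msln is high and low, and has another order of weeks without Calb2.

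Markers of other cell types moved between the same libraries. The summed CPM of 13 epithelial markers was 31597 at W0, 26022 in W2, 24849 in W5, 21588 in W8 and 22910 in W11, with Elf3 at 0. Most of the difference between W8 and W0 lay in Krt8, Krt19 and Lgals4, which together had 15253 CPM at W8 and 24972 CPM at W0. The other 9 markers summed to 6335 CPM at W8 and 6625 CPM at W0, and none of the 12 measured markers fell at W8. Per 1000 CPM of all these markers, Clu came to 35.8 at W8 and 6.82 at W0, a ratio of 5.25. Msln came to 6.57 times its W0 value at W8, and Ly6a to 2.57 times at W2 and between 2.11 and 2.37 times afterwards. On that scale Ly6a and Clu passed the 2-fold criterion in all 4 weeks, where 6.85% (W2), 13.5% (W5), 21.6% (W8) and 20.6% (W11) of all genes were at least 2-fold higher, against 3.41%, 6.63%, 7.79% and 11.3% in CPM. Against the 9 markers without Krt8, Krt19 and Lgals4, a choice made after seeing the data, Clu came to 3.75 times its W0 value at W8 and Msln to 4.70 times, while Ly6a came to 2.33 times at W2 and 1.69 times at W8. Ly6a passed there at W2 and W5 and not at W8 or W11, and Clu passed at W5, W8 and W11 and not at W2; 4.8%, 18%, 8.35% and 17% of all genes were higher in the 4 weeks in order.

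For Msln the cell type in question is mesothelium. The 8 mesothelial markers summed to 18.6 CPM at W0, 24.3 in W2, 25.5 in W5, 9.63 in W8 and 9.63 in W11. The defining markers Wt1 and Bnc1 were at or under 0.442 CPM in every library, and Upk3b was at 1.05 CPM at W8 against 3.34 CPM at W0. Calb2, also a neuronal gene, made up much of the sum, with 10.2 CPM at W0, 20.2 in W2, 13.7 in W5, 4.41 in W8 and 5.95 in W11. Without it the other 7 markers summed to 8.42 CPM at W0, 4.10 in W2, 11.8 in W5, 5.23 in W8 and 3.68 in W11, so W8 was not the lowest library. Of the 4 markers tested, 2 fell at W8 (Calb2 and Upk3b), where 3.85% of all genes were at least 2-fold lower. Upk1b was at 1.87 CPM at W8 against 1.52 CPM at W0. The part of mesothelium in the level of Msln was not tested. Squamous epithelial markers, 8 genes, summed to 5.59 CPM at W0, 5.67 in W2, 29.2 in W5, 69.6 in W8 and 72.7 in W11, so they were as high at W11, where Msln was low again, as at W8. Their part in the level of Msln was not tested either.

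For Ly6a the cell types in question are endothelium and T cells. The 10 endothelial markers summed to 280 CPM at W0, 187 in W2, 303 in W5, 278 in W8 and 170 in W11. The 7 T cell markers summed to 40.3 CPM at W0, 56.9 in W2, 70.8 in W5, 51.4 in W8 and 67.4 in W11. At W2, 1 of the 7 rose and none fell, where 3.41% of all genes were at least 2-fold higher and 4.23% lower. The median log2 fold of these markers at W2 was 0.64 against -0.02 for all genes, and 6 of the 7 lay above W0. Mitochondrial transcripts held 4.87% of counts at W2 and 1.86% to 2.83% in the other libraries. The part of endothelium, T cells or mitochondrial content in the level of Ly6a was not tested.

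For Clu, the summed fibroblast markers (8 genes) were highest at W5, at 4599 CPM against 2327 CPM at W0, and stood at 3446 CPM at W8. Col3a1 alone held 2540 CPM of the W5 sum and 1429 CPM of the W8 sum. Of the 8 markers, 3 were higher at W8 than at W5 and 5 were lower, so the sum does not give the peak week of each marker. Enteric glia markers (5 genes, of which Erbb3, also an epithelial gene, made up most) summed to 120 CPM at W8 and 185 CPM at W0; the others summed to 8.89 CPM at W8 and 10.9 CPM at W0. The sum of macrophage markers (9 genes) was nearly level from W5 on, at 1809 CPM at W5, 1929 at W8 and 1942 at W11, against 1157 CPM at W0. Single markers were not level. Lyz2, the largest part of the sum, was at 746 CPM at W5, 923 at W8 and 957 at W11. Csf1r was at 116, 123 and 60.4 CPM in these weeks. At W11, 5 of the 9 markers were higher than at W8 and 4 were lower. Neutrophil markers (9 genes) summed to 116 CPM at W0, 143 in W2, 203 in W5, 299 in W8 and 275 in W11, but Ly6g, a Ly6 family gene whose reads may be shared, made up 110 CPM of the W0 sum. Without Ly6g the other 8 markers summed to 5.81 CPM at W0, 4.23 in W2, 48.3 in W5, 221 in W8 and 196 in W11, which is 38.0 times the W0 level at W8. Of the 6 tested, 5 rose at W8 and none fell (median log2 fold 3.37), where 7.79% of all genes were higher and 3.85% lower. Summed neutrophil markers, like Clu, were thus highest at W8. S100a8 and S100a9 made up most of that sum, but they did not both peak at W8. S100a8 was at 68.5 CPM at W8 and 65.8 CPM at W11, and S100a9 at 102 and 111 CPM. Of the 6 tested, 2 were higher at W11 than at W8 and 4 were lower. The part of these cell types in the level of Clu was not tested.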

How the data were processed

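Total RNA was taken from colon tissue with TRIzol and sequenced from Illumina TruSeq libraries, per the labels' protocols. The submitters' processing notes name the aligner HISAT2 2.2.1, featureCounts and FastQC, with the builds GRCm38 and GRCm39. The annotation, the strand setting and how multi-mapped reads were handled are not stated in those sources. The deposited columns headed TPM hold whole-number counts, since their totals differ between libraries. The deposited columns headed count hold decimals that were read as RPKM, per gene length and library size. Relative to W0, the ratio of the 2 kinds of column was the same within 1% in 2620 of 2620 genes above 5 RPKM, so each is a rescaled form of the other.

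CPM is the count over the library total (13778653, 14640851, 20379429, 13389184 and 14945610 counted reads for W0, W2, W5, W8 and W11). Folds were taken on log2(CPM + 1), a scale that shrinks the folds of low genes, and the genes tested are those whose mean reached 1 CPM. Intervals and the floor of 3 counts cover counting error only. Where identifiers shared a symbol, the most abundant kept it, and 118 had none. Lists were summarised by counts and medians beside those of all genes.

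The members and lists were chosen with earlier results of these data known. Named genes are the members, up to 3 rises and 1 fall past 2-fold per pathway list at W8 or W11 against W0, and the 3 genes nearest to each member; any other gene named was chosen after its values were seen. Some genes under this rule are not reported here. A planned search for promoter motifs was left out, because the promoter table used held only the entry of Anxa8. The sequence and overlap checks used GENCODE M21 (GRCm38). The calling step was tested on simulated counts. Alternatives were other pseudocounts, filters, scalings and baselines, the RPKM values and, chosen after seeing the data, centring on the median gene, summing Ly6a with its paralogs, and marker lists without their most abundant genes. Software was scipy 1.17.1, pandas 2.3.3, numpy 2.4.6 and matplotlib 3.10.9 under Python 3.11.15.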

Additional observations from a re-analysis of the deposited data

How the results depend on the processing

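No paired analysis was possible because each week has 1 library, and no replicate could be left out. The members called against W0 numbered 1 (W2), 0 (W5), 2 (W8) and 1 (W11). With scaling to the epithelial list they numbered 2 at W2, 2 at W5 and 3 at W11, and at W8 Ly6a passed besides Clu and Msln. With a minimum mean of 5 CPM, which leaves out Msln, and with the deposited RPKM values, 1 member was called at W8. With W2, or with the mean of W0 and W2, as baseline, 0 were called at W11. Between consecutive weeks 2 members were called at W8 against W5. That number was 1 with a pseudocount of 5 or a minimum mean of 5 CPM, and 0 with the RPKM values. Scaling to the epithelial list without Krt8, Krt19 and Lgals4 gave 2 members at W5 against W0 and 1 at W8 against W5, where Clu was lost. At W11 against W8 the call of Msln was lost (0 members) with a pseudocount of 5, a minimum mean of 5 CPM, median-of-ratios scaling, the RPKM values, centring, or that shorter epithelial list. The rise of Clu at W8 and W11 against W0 (log2 folds 1.72 to 2.39 and 1.04 to 1.56) and that of Ly6a at W2 (1.01 to 1.36) passed under every alternative tried with W0 as baseline. That of Msln at W8 (0.72 to 2.22) passed in 8 of 9. The changes of filter among these alternatives cannot alter the fold of a gene that stays in. No member that was called changed direction.

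Over all genes, 1125 (W2), 1251 (W5), 1713 (W8) and 4146 (W11) were called against W0. With a pseudocount of 5 these numbers were 493, 575, 929 and 2592, and with the RPKM values 429, 603, 752 and 1843. With a pseudocount of 0.1, 1812 were called at W2. With scaling to the epithelial list, 2064 were called at W5 and 3357 at W8. Between consecutive weeks 2046 (W5), 1233 (W8) and 2259 (W11) genes were called, against 1083, 536 and 1076 with a pseudocount of 5 and 995, 537 and 666 with the RPKM values. The share of higher genes among those called was 44.6% (W2), 78.0% (W5), 66.9% (W8) and 40.1% (W11) against W0. With scaling to the epithelial list it was 76.0%, 96.1%, 94.7% and 73.2%, and for W8 against W5 78.2% in place of 57.0%. With the shorter list, 2704 genes were called at W5 against W0 and 1878 at W8 against W5, and the share was 61.8%, 97.8%, 72.9% and 63.0% against W0 and 89.2%, 17.1% and 52.4% between consecutive weeks. With centring it was 65.2% (W5), 56.2% (W8) and 52.5% (W11), for W5 against W2 50.9% in place of 67.9%, and for W11 against W8 65.5% in place of 22.2%. The balance of directions thus depends on the scaling. Depth limits Msln most, at 33 counts in W0.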
